A study of Homo sapiens with 8 samples.

Results

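The immunoproteasome is the form of the proteasome that cells build when they meet interferon. 10 genes were followed, chosen by name from the deposited table of 26372 gene symbols: the inducible catalytic subunits PSMB8, PSMB9 and PSMB10, the constitutive subunits PSMB5, PSMB6 and PSMB7 whose places they take, the PA28 activator subunits PSME1, PSME2 and PSME3, and the assembly factor POMP. All 10 were in the table. RNA came from BE(2)-M17, an established human neuroblastoma line, in 4 untreated libraries and 4 libraries from cells given interferon-γ (IFN-γ) at 10 ng/ml for 24 h, and no other difference between the groups is given. Each sample carries the label M17; SH-SY5Y, another neuroblastoma line, appears beside it in the culture description. The labels do not name separate cultures, so the spread between libraries may be technical. Each library was made from 1 µg of RNA after removal of ribosomal RNA and read as pairs of 150 nt. Values are FPKM, fragments scaled to transcript length and to library size, which is a level per length. Comparing levels between genes rests on the lengths used, which are not stated. It is also limited where genes share exonic bases.

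The proteasome is a barrel of stacked rings that cuts proteins into peptides. Its outer rings are made of alpha subunits and its inner rings of beta subunits, and in each inner ring 3 beta subunits carry the active sites: beta1 (PSMB6), beta2 (PSMB7) and beta5 (PSMB5). When the barrel is assembled anew in the presence of the inducible counterparts, beta1i (PSMB9), beta2i (PSMB10) and beta5i (PSMB8) enter in their stead, with the help of the chaperone POMP. The barrel so formed yields more of the peptides that MHC class I molecules can carry. PA28, a ring of PSME1 (alpha) and PSME2 (beta), caps the barrel in the cytoplasm, while PSME3 (PA28 gamma) forms a ring of its own in the nucleus. Cells of the blood lineage hold immunoproteasomes at rest, and most other cells, neurons among them, hold little.

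The line carried its defining markers. Of 10 markers of sympathetic neuroblasts, MYCN had the highest level and the summed level was 3233 to 3325 FPKM untreated and 3173 to 3473 with IFN-γ. Of 15 leukocyte markers, 13 stayed below 0.5 FPKM in every library, CD3D, CD3E, MS4A1 and FCGR3A were among those listed at 0 in all 8, and the sum was 1.22 to 1.40 FPKM untreated and 1.33 to 1.83 with IFN-γ. The 6 fibroblast markers summed to 166 to 176 FPKM untreated and 184 to 239 with IFN-γ. Most of this was DCN, at 140 and 143 FPKM on average. LUM went from 20.3 to 32.5, PDGFRB from 8.20 to 21.0 and COL1A1 from 1.86 to 1.37. COL3A1 went from 0.0995 to 0.284, and COL1A2 was listed at 0 in all 4 untreated libraries and averaged 0.0115 with IFN-γ. The part of these markers in the results was not tested. The steps between low values, searched from 0.035 to 0.085 FPKM, placed 1 fragment per kilobase at 0.0491 to 0.0709 FPKM. If each library was scaled to its own size, that is about 14.1 to 20.4 M fragments per library (M for mega). All 10 members were higher in IFN-γ replicate 4 than the mean of the other 3 IFN-γ libraries, with a median difference of 0.28 (log2). Over all 13598 genes tested the median was 0.00038, and 6806 of these genes were higher there. Among them were genes outside the proteasome, such as LUM (1.43 times the mean of the other 3), TH (1.40) and PPIA (1.27), while PSME3 was at 1.05. The FPKM sum of the untreated libraries ran from 633862 to 1433360. The short RNA gene SNORD3A held 5.97 to 57.9% of it there and 0 with IFN-γ. For IFN-γ replicate 4 the sum was 760353, against 591795 to 603942 in the other 3 IFN-γ libraries. Values without IFN-γ replicate 4 are therefore given beside the results.

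The members' promoters differ in a short motif that bears on an interferon comparison. RefSeq windows of 300 bases (GRCh38.p14) around the annotated start, 250 bases before it and 50 after, matched 8 of the 10 members, all but PSMB6 and PSMB7. They were searched on both strands for the core of the interferon-stimulated response element, which interferon regulatory factors bind: GAAA, any 2 bases, GAAA. It occurred in PSMB8, PSMB10, PSME1 and PSME2, 4 of 8 members, and in 4.38% of the 27305 genes in the table (3.57% of its 35116 windows, since some genes have more than 1). The stretches of the 4 members are shown because these rose most beside PSMB9, and that of TAP1 because it faces PSMB9, each as 30 bases in the direction of its gene with the motif in capitals; on the opposite strand the motif reads TTTC, any 2 bases, TTTC.
PSMB10 (chr16:67936852-67936881, 21 to 12 bases before the start): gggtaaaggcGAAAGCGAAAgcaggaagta
PSME2 (chr14:24146619-24146648, 28 to 19 bases before the start): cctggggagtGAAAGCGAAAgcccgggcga
PSME1 (chr14:24136189-24136218, bases 6 to 15 from the start): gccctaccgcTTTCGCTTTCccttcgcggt
PSMB8 (chr6:32844032-32844061, from 4 bases before the start to base 6 of the transcript): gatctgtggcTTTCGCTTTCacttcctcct
TAP1 (chr6:32853813-32853842, 128 to 119 bases before the start): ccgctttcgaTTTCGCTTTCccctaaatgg

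Read on the strand that begins with GAAA, the capitals spell the same letters in all 4 members. The PSMB8 stretch belongs to the downstream of 2 annotated starts. The window of PSMB9 held no match. In RefSeq, PSMB9 begins 487 bases from the upstream of 2 starts of TAP1, the peptide transporter gene that points the other way. That TAP1 window held 2 overlapping matches. The nearer, TTTCGATTTC, lay 354 bases from the PSMB9 start, and the one in capitals above lay 360 bases from it. Both were thus outside the PSMB9 window. TAP1 was the only neighbour looked up for a member, and no share over all genes is given for matches in neighbours. The windows of PSMB5, PSME3 and POMP held no match to this core, and among 39 other proteasome genes with a window it occurred in 3 (PSMA4, PSMB4 and PSMG4). The gamma-activated site (TTC, any 3 bases, GAA) was found in PSMB8, PSMB5 and PSME3, against 9.38% of all genes (7.66% of windows) and 5 of the 39 other proteasome genes. The core of the antioxidant response element (TGAC, any 3 bases, GC), a site for the stress factors that act on proteasome genes, was found in PSMB9, PSME1 and PSME2, against 16.1% of all genes (13.3% of windows) and 16 of the 39 other proteasome genes. A match is a string of letters, and binding was not measured.

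Of the 10 genes, 6 rose with IFN-γ and none fell (limma on log2(FPKM + 0.1), adjusted p under 0.05 over all genes tested), where 13.3% of all genes tested were called higher and 9.05% lower. The same 6 genes, the 3 inducible catalytic subunits, PSME1, PSME2 and POMP, had no overlap between the groups, as had 15.4% of all genes tested in that direction. Group means were 31.5 times the untreated mean for PSMB8, 10.4 times for PSMB10, 8.31 times for PSME2, 7.96 times for PSME1 and 1.28 times for POMP. PSMB5, PSMB6, PSMB7 and PSME3 did not pass. The counts were also 6 and 0 without IFN-γ replicate 4. In bulk RNA, more cells that express a gene and more RNA per cell cannot be told apart.

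**Figure D1:**
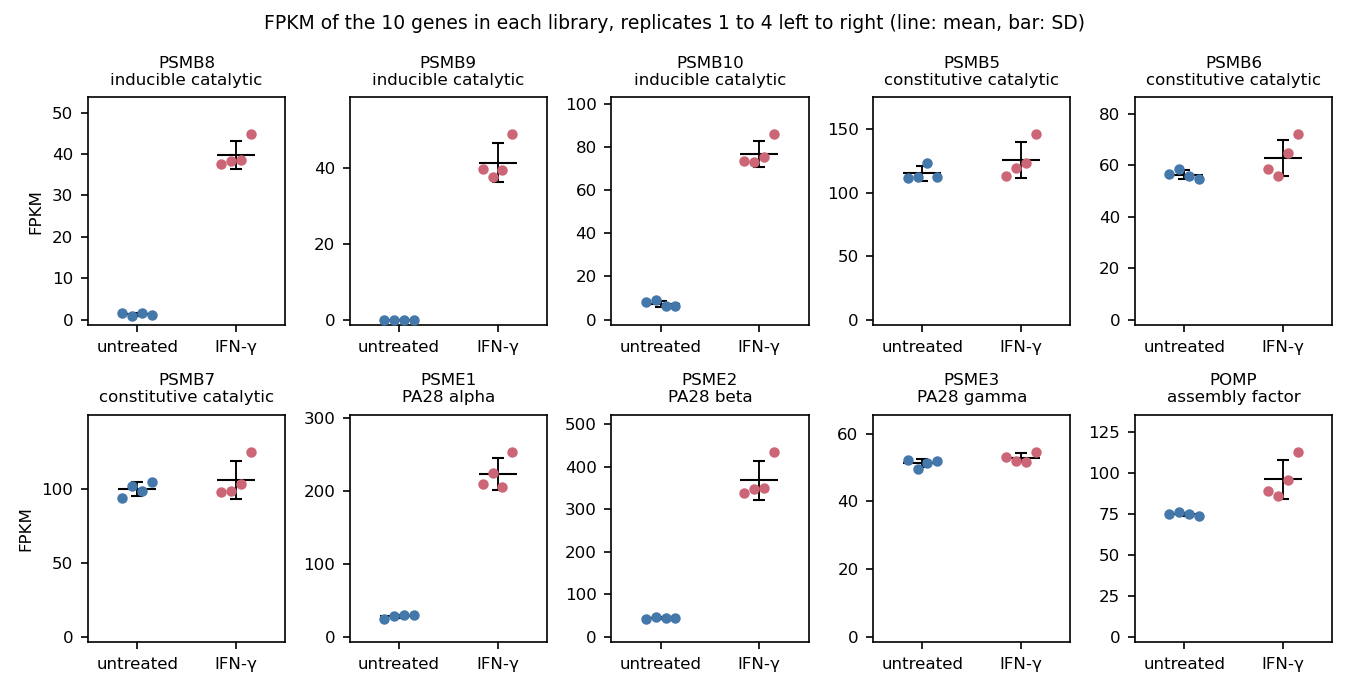
FPKM of each of the 10 genes (linear axis from 0, scaled per gene) in the 4 untreated (blue) and 4 IFN-γ libraries (red), with mean and SD. PSMB8, PSMB9, PSMB10, PSME1 and PSME2 lie far above their untreated values, POMP goes from 74.9 to 96.1 on average without overlap, and PSMB5, PSMB6, PSMB7 and PSME3 overlap between groups.

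PSMB8 (beta5i, the inducible subunit with chymotrypsin-like activity) stood at 1.56, 0.936, 1.55 and 1.02 FPKM before treatment and at 37.5, 38.3, 38.5 and 44.8 after it. Every treated library was above every untreated one, with group means of 1.26 ± 0.333 and 39.8 ± 3.34 FPKM (SD, n = 4). On the log2 scale it differed by 4.90 ± 0.15 (SE, limma adjusted p = 3.6e-09), and 4.84 without IFN-γ replicate 4. The gene lies on chromosome 6, in the MHC class II region, from 32840717 to 32844703 on the reverse strand (GRCh38, GENCODE release 29). PSMB8-AS1 overlaps its exons on the forward strand, and the kit named in the labels does not mark strand, so the reads of the 2 genes cannot be told apart where they overlap. PSMB8-AS1 was at 8.01 ± 0.957 FPKM with IFN-γ (SD, n = 4) and at most 0.110 untreated.

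PSMB9 (beta1i) was listed at 0 in all 4 untreated libraries, while the treated ones held 39.8, 37.5, 39.5 and 48.8 FPKM. No fold is given against a group at 0, and the call had limma adjusted p = 2.3e-12. The untreated values had no spread, so this p rests on the treated libraries' spread and on the added 0.1 FPKM. It cannot be ranked against those of the other members. Between treated libraries PSMB8 and PSMB9 overlapped, so their levels with IFN-γ did not differ beyond the spread. Its GENCODE model, which begins farther upstream than the RefSeq start, runs from 32844136 to 32859585 on the forward strand of chromosome 6 and shares exonic bases with PSMB8-AS1 and PSMB8, so the same limit holds for it.

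PSMB10 (beta2i) is the inducible subunit encoded outside the MHC, on chromosome 16 from 67934502 to 67937087 (reverse strand). It differed from the other inducible subunits in its level before treatment. Untreated libraries held 7.99, 9.07, 6.35 and 6.24 FPKM, each above the highest PSMB8 value of that group, 1.56. With IFN-γ it reached 73.4, 73.1, 75.0 and 85.7 FPKM, the highest of the 3 in every treated library. On the log2 scale it differed by 3.37 ± 0.11 (SE, limma adjusted p = 6.9e-09), and 3.32 without IFN-γ replicate 4. A gene model on the same strand, AC040162.1, shares exonic bases with it.

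The constitutive subunits were among the more abundant RNAs of the untreated cells. PSMB5 (beta5) had 112, 113, 124 and 112 FPKM untreated and 114, 120, 124 and 146 with IFN-γ. The groups overlapped, with a log2 change of 0.12 (95% interval -0.04 to 0.28, limma adjusted p = 0.281) and 0.05 without IFN-γ replicate 4. PSMB6 (beta1, caspase-like) had 56.4, 58.5, 55.7 and 54.6 FPKM untreated and 58.6, 55.9, 64.6 and 71.9 with IFN-γ. Its log2 change was 0.15 (95% interval -0.01 to 0.31, adjusted p = 0.168), and 0.08 without that replicate. PSMB7 (beta2, trypsin-like) had 94.0, 102, 98.5 and 105 FPKM untreated and 97.5, 98.7, 103 and 125 with IFN-γ, a log2 change of 0.08 (95% interval -0.09 to 0.25, adjusted p = 0.488) and 0.00093 without that replicate. In all 3 genes the highest treated value was that of IFN-γ replicate 4. The 3 intervals together ran from 0.941 to 1.24 times the untreated level. The sign of the differences of PSMB5 and PSMB7 depended on the scaling: with quantile normalization, which moved the median of all genes by -0.07, PSMB5 was at -0.04 and PSMB7 at -0.07 (log2), while PSMB6 was at 0.03.

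Whether the balance within each catalytic pair shifted was asked of ratios within a library, which do not depend on how libraries are scaled to each other. PSMB8 made up 1.37, 0.824, 1.24 and 0.897% of the FPKM of the beta5 pair before treatment and 24.8, 24.3, 23.7 and 23.5% after it. PSMB9 made up none of the listed FPKM of the beta1 pair untreated and 40.5, 40.1, 37.9 and 40.4% with IFN-γ. PSMB10 made up 7.83, 8.20, 6.05 and 5.63% of the beta2 pair untreated and 42.9, 42.5, 42.2 and 40.7% with IFN-γ. In each pair the treated libraries lay wholly above the untreated ones, and in none of them did the inducible RNA exceed its constitutive counterpart. IFN-γ replicate 4, which was highest in level, had the lowest treated share in the beta5 and beta2 pairs.

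**Figure D2:**
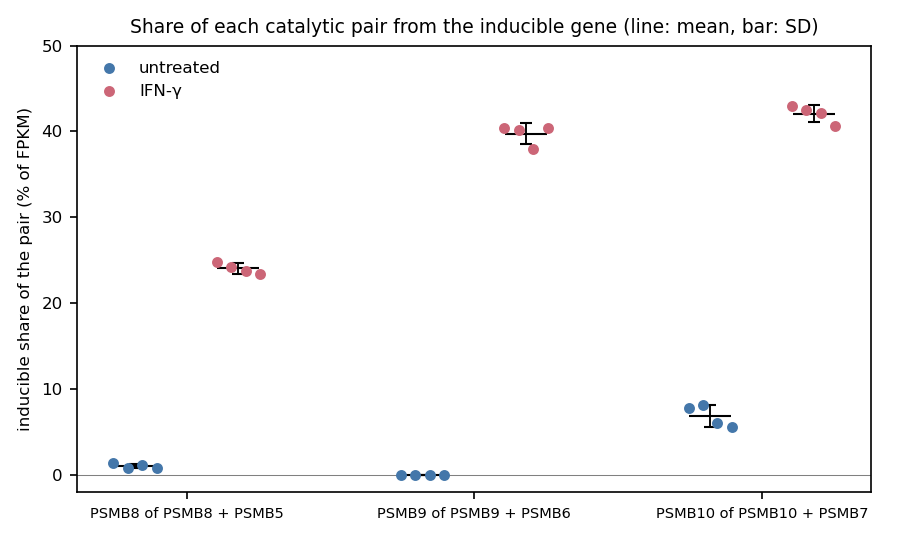
Share of each catalytic pair's FPKM that came from the inducible gene, in percent, per library (points), with mean and SD. Treated libraries reach 24.1 ± 0.612% for PSMB8, 39.7 ± 1.21% for PSMB9 and 42.1 ± 0.984% for PSMB10, and untreated libraries stay at or below 8.20%.

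The ratio PSMB8/PSMB5 went from 0.0109 ± 0.00269 to 0.317 ± 0.0106 (SD, n = 4), and PSMB10/PSMB7 from 0.0746 ± 0.0147 to 0.727 ± 0.0290. PSMB9/PSMB6 was 0 untreated and 0.660 ± 0.0328 with IFN-γ. Each of these 3 shifts had p = 0.0286 in an exact two-sided permutation test of the log2 ratio, the smallest that 4 against 4 libraries allow, and 0.0343 after Benjamini-Hochberg adjustment over the 6 ratios tested. The beta5 pair had the lowest inducible share after treatment: its 4 treated shares, 23.5 to 24.8%, lay below all treated shares of the other pairs, of which the lowest was 37.9%. Over the 3 pairs together the inducible share was 3.10 ± 0.491% untreated and 34.96 ± 0.710% with IFN-γ, and 35.2% without IFN-γ replicate 4. These are shares of RNA, and incorporation into the barrel was not measured.

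The summed catalytic RNA was larger in every treated library. The 6 catalytic genes together had 272, 283, 286 and 279 FPKM untreated and 420, 423, 444 and 522 with IFN-γ. The sum of the inducible genes went from 8.68 ± 1.31 to 158 ± 14.3 FPKM and that of the constitutive genes from 271 ± 6.46 to 294 ± 33.5, or 278 without IFN-γ replicate 4.

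**Figure D3:**
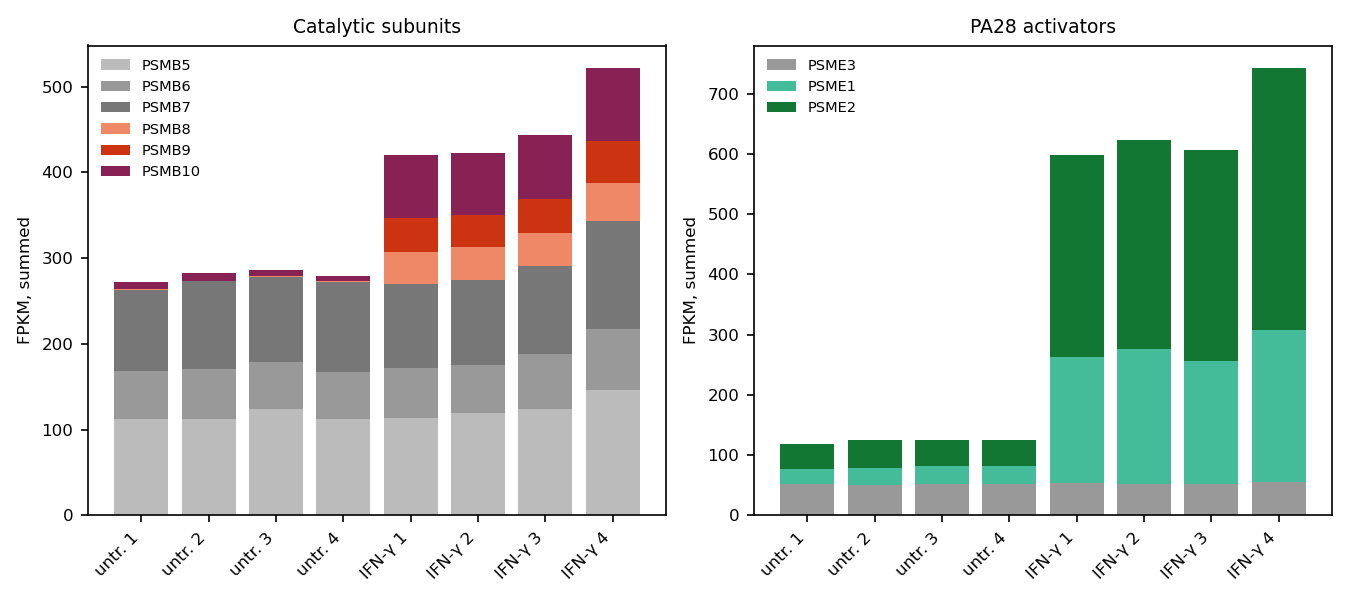
Stacked FPKM per library of the 6 catalytic genes (left) and the 3 PA28 genes (right). The grey constitutive part of the catalytic stack is 262 to 278 FPKM untreated and 270 to 343 with IFN-γ, and the coloured inducible part is added to it.

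The 11 structural subunits of the barrel, which have no counterpart among the inducible subunits, gave a yardstick that itself changed with treatment. Of these 11 genes 10 were called higher, where 13.3% of all genes tested were. Their median log2 change was 0.66, against -0.0047 over all genes tested. PSMA3 rose from 95.7 ± 6.29 to 243 ± 39.0 FPKM, PSMA6 from 131 ± 4.98 to 332 ± 45.7 and PSMA5 from 17.0 ± 0.775 to 39.1 ± 5.82 (SD, n = 4). The exception was PSMA7, at 216 ± 3.98 and 255 ± 41.5 FPKM (adjusted p = 0.110). Without IFN-γ replicate 4 all 11 were called higher, PSMA7 among them, as were 2157 of all 13567 genes tested there. The mean over the 11 was 104 ± 1.83 FPKM untreated and 170 ± 24.9 with IFN-γ.

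Set against that mean in the same library, each constitutive catalytic subunit was lower after treatment. PSMB5 went from 1.11 ± 0.0401 times the structural mean to 0.743 ± 0.0346, PSMB6 from 0.542 ± 0.0235 to 0.371 ± 0.0246 and PSMB7 from 0.960 ± 0.0419 to 0.626 ± 0.0178 (SD, n = 4), with no overlap in any of the 3. The ratio shows unequal change between the genes and not a fall of PSMB5, PSMB6 or PSMB7. With the inducible partner added the values were closer: PSMB8 + PSMB5 was at 1.12 ± 0.0419 untreated and 0.978 ± 0.0462 with IFN-γ, PSMB9 + PSMB6 at 0.542 ± 0.0235 and 0.615 ± 0.0300, and PSMB10 + PSMB7 at 1.03 ± 0.0458 and 1.08 ± 0.0439. The beta5 pair lay lower and the beta1 pair higher than before treatment in all 4 treated libraries, while the beta2 pair overlapped between groups. These ratios were examined after the levels had been seen and are given without a test.

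**Figure D4:**
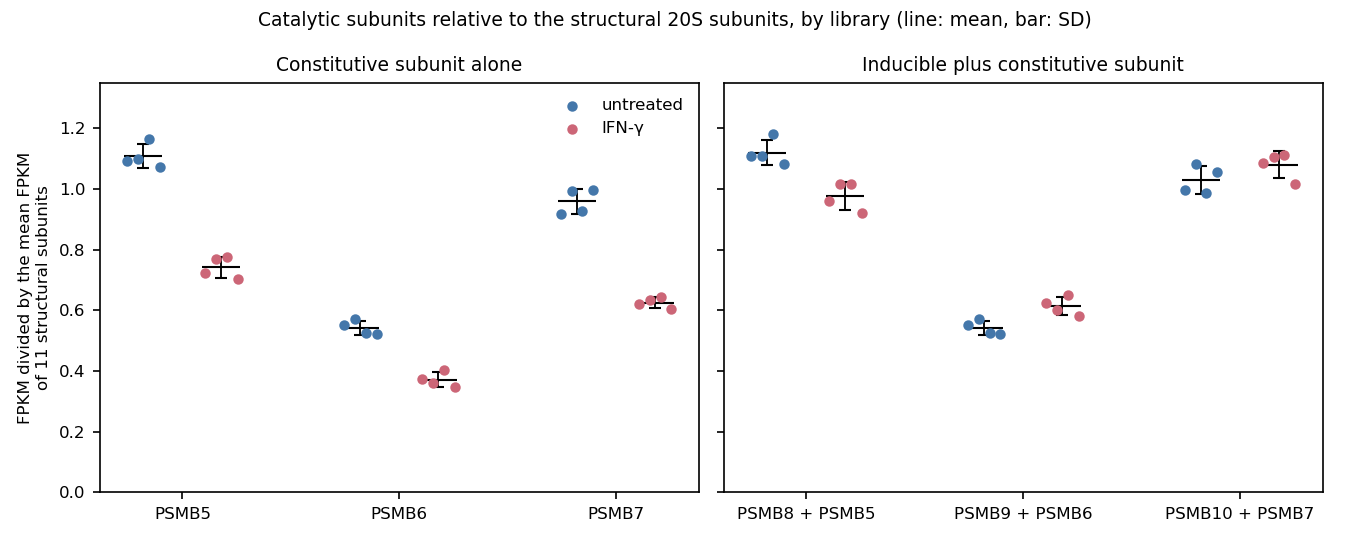
FPKM of each constitutive catalytic subunit (left) and of each inducible plus constitutive pair (right), divided by the mean FPKM of the 11 structural subunits in the same library, with mean and SD. Alone, the constitutive subunits average 0.542 to 1.11 times the structural mean untreated and 0.371 to 0.743 with IFN-γ. The pairs average 0.542 to 1.12 untreated and 0.615 to 1.08 with IFN-γ, and only the beta2 pair overlaps between groups.

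The PA28 activators divided by the ring they form. PSME1 (PA28 alpha) had 24.4, 28.3, 29.98 and 29.3 FPKM untreated and 209, 224, 205 and 254 with IFN-γ. On the log2 scale it differed by 2.99 ± 0.08 (SE, limma adjusted p = 1.2e-09), and 2.92 without IFN-γ replicate 4. PSME2 (PA28 beta) had 42.1, 46.8, 43.8 and 44.3 FPKM untreated and 337, 348, 350 and 435 with IFN-γ. On the log2 scale it differed by 3.05 ± 0.08 (SE, limma adjusted p = 7.0e-10), and 2.96 without that replicate. No treated value of either gene overlapped an untreated one.

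The pair moved together. PSME2 exceeded PSME1 in all 8 libraries, and their ratio was 1.59 ± 0.122 untreated and 1.65 ± 0.0787 with IFN-γ (SD, n = 4; exact two-sided permutation p = 0.400, also 0.400 adjusted). The difference in the log2 ratio was 0.058, against an SD of 0.111 within the untreated group. PSME1 occupies bases 24136158 to 24138967 of chromosome 14, forward strand, and PSME2 from 24143362 to 24147570 on the reverse strand, with 4394 bases between them. PSME2 overlaps exons of RNF31, and PSME1 those of EMC9, each on the opposite strand.

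PSME3 (PA28 gamma), the nuclear activator, had 52.2, 49.6, 51.2 and 52.0 FPKM untreated and 53.2, 52.0, 51.7 and 54.7 with IFN-γ. The groups overlapped, and the log2 change was 0.05 (95% interval -0.03 to 0.12, limma adjusted p = 0.403), or -0.06 with quantile normalization. Its exons overlap those of BECN1 on the opposite strand. Within a library PSME1/PSME3 went from 0.547 ± 0.0540 to 4.21 ± 0.338 and PSME2/PSME3 from 0.864 ± 0.0572 to 6.94 ± 0.705 (SD, n = 4; exact two-sided permutation p = 0.0286 each, 0.0343 adjusted). PSME3 was thus the highest of the 3 activator RNAs in each untreated library and the lowest in each treated one. Its share of the PA28 FPKM went from 41.5 ± 1.78% to 8.27 ± 0.655%.

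POMP, the chaperone that places beta subunits on a partly built barrel and is itself broken down there, had 74.8, 76.1, 74.7 and 74.0 FPKM untreated and 89.3, 86.3, 95.9 and 113 with IFN-γ. All treated libraries exceeded all untreated ones. On the log2 scale it differed by 0.35 ± 0.07 (SE, limma adjusted p = 0.00699), and 0.27 without IFN-γ replicate 4 (adjusted p = 0.000335). The change was the smallest of the 6 called members, and relative to the structural mean POMP went from 0.721 ± 0.0192 to 0.567 ± 0.0240 (SD, n = 4). POMP occupies bases 28659104 to 28678925 of chromosome 13, forward strand, and shares no exonic base with another annotated gene.

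The order of levels turned over with treatment. Untreated, it ran PSMB5, PSMB7, POMP, PSMB6, PSME3, PSME2, PSME1, PSMB10, PSMB8 and PSMB9, and no neighbours in this order overlapped. PSMB5 stood above 96.3% of the genes tested and PSMB8 above 12.3%. With IFN-γ it ran PSME2, PSME1, PSMB5, PSMB7, POMP, PSMB10, PSMB6, PSME3, PSMB9 and PSMB8. Here PSMB5 and PSMB7, PSMB7 and POMP, and PSMB9 and PSMB8 overlapped between libraries. Within every treated library PSMB5 was above PSMB7 and PSMB7 above POMP, while PSMB9 and PSMB8 changed order from library to library. PSME2 stood above 98.7% of the genes tested with IFN-γ and PSMB8 above 86.5%.

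The other parts of the proteasome changed less. Of 19 genes of the 19S regulator, the cap that unfolds tagged proteins, 9 were called higher and 0 lower (limma; 13.3% of all genes were called higher). Their median was 0.14 (log2), and the highest, 0.24, belonged to PSMC4, which rose from 38.8 ± 0.339 to 45.9 ± 4.25 FPKM. PSMD13 (0.24) and PSMD14 (0.23) followed, calls that were lost in 12 and 6 of 19 alternative settings. With quantile normalization only 1 of the 19 was higher and 2 were lower, where 1470 of all 13598 genes tested were higher and 2564 lower. Of 8 assembly chaperones other than POMP, PSMG4 alone was called (log2 change 0.23, adjusted p = 0.0388), and none without IFN-γ replicate 4. The PSMG4 call was lost in 10 of 19 alternative settings. PSMG1, at 52.9 ± 1.73 and 57.6 ± 3.80 FPKM, and PSMG3, at 27.1 ± 2.18 and 28.8 ± 3.27, did not pass. Of 5 other caps and interactors, PSMF1, an inhibitor of the barrel, was called at 21.2 ± 0.135 and 25.8 ± 0.624 FPKM. KIAA0368, at 30.8 ± 0.672 and 33.1 ± 1.05, and the deubiquitinase gene UCHL5, at 42.3 ± 0.752 and 42.1 ± 0.957, did not pass. Without IFN-γ replicate 4 KIAA0368 passed (adjusted p = 0.0465), and with quantile normalization UCHL5 was called lower (log2 change -0.10, adjusted p = 0.0413). The thymus subunit PSMB11 and the testis subunit PSMA8 were at most 0.0786 FPKM in any library and were not tested.

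**Figure D5:**
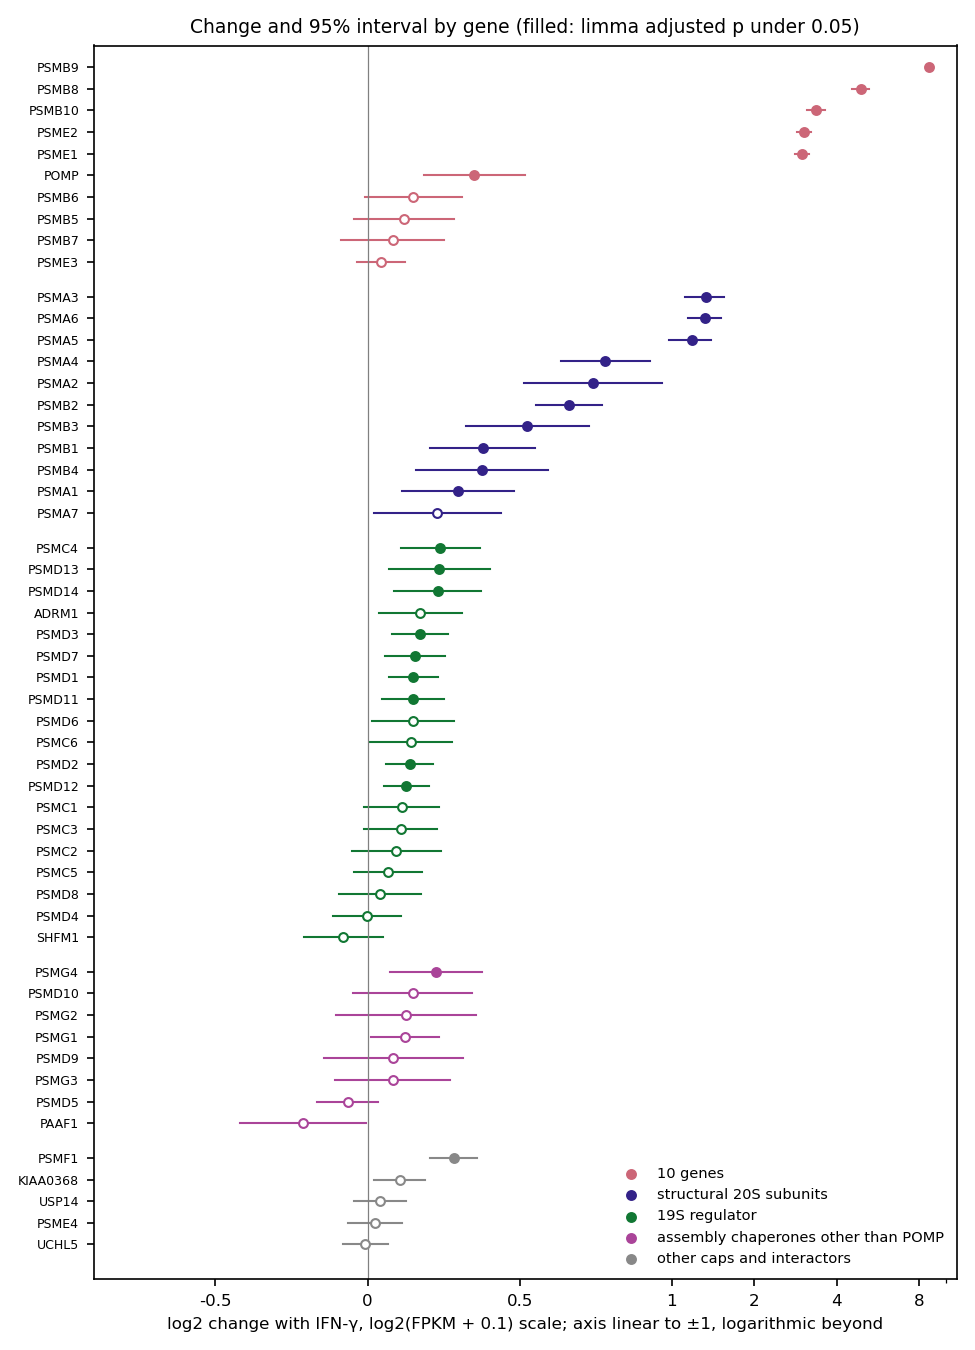
Log2 change with IFN-γ and its 95% interval for the 10 genes and 43 other proteasome genes, filled where limma's adjusted p was under 0.05. The position of PSMB9 depends on the added 0.1 FPKM because its untreated values are 0; PSMA3 and PSMA6 lead the structural subunits at 1.33, and the 19S genes lie between -0.08 and 0.24.

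Of transcription factors known for these genes, IRF1 rose from 0.584 ± 0.0404 to 125 ± 2.14 FPKM, while NFE2L1, the factor that raises constitutive proteasome genes when the proteasome is blocked, was at 39.2 ± 0.627 and 40.2 ± 2.56 (log2 change 0.03, adjusted p = 0.680). NFE2L2, which acts through the antioxidant element, rose from 47.1 ± 0.827 to 52.8 ± 3.13 (log2 change 0.16, adjusted p = 0.0278), a call that was lost in 8 of 19 alternative settings, among them quantile normalization (adjusted p = 0.237). The reference genes ACTB and GAPDH did not pass, with log2 changes of 0.11 (adjusted p = 0.301) and 0.08 (adjusted p = 0.569). The ACTB groups did not overlap, and without IFN-γ replicate 4 ACTB was called higher (log2 change 0.09, adjusted p = 0.0443). The neighbours of PSMB8 and PSMB9 in the MHC rose as well. TAP2 went from 4.21 ± 0.269 to 66.0 ± 0.146 FPKM and TAP1 from 0.131 ± 0.0636 to 353 ± 18.5 (SD, n = 4).

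The genes whose profile over the 8 libraries came closest to each induced member were found by the root mean square difference of log2 values after the untreated mean was taken off. For PSMB8 they were WARS (0.21), SLC15A3 (0.27) and UBA7 (0.30), and for PSMB9 CXCL9 (0.10), HLA-B (0.15) and APOL4 (0.21). For PSMB10 they were IFIT1 (0.11), PLSCR1 (0.13) and IRF9 (0.14). PSME1 and PSME2 shared STAT2 (0.17 and 0.15) and PARP12 (0.15 and 0.15) as nearest genes, followed by B2M (0.19) for PSME1 and IRF9 (0.17) for PSME2. UBA7 (0.0528 FPKM untreated), SLC15A3 (0.0862) and APOL4 (0.0566) lay below the added 0.1 FPKM, and PSMB9 and CXCL9 were listed at 0 untreated, so likeness to PSMB8 and PSMB9 depends on that added value. All likeness rests on 8 libraries in 2 groups and carries no test.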

How the data were processed

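The authors deposited FPKM per gene symbol, made with TopHat2 and Cuffdiff on hg38 per the submitters' processing notes; which annotation and which scaling between libraries they used is not stated in the labels or notes. Values were tested as log2(FPKM + 0.1) with limma 3.58.1 (R 4.3.3, empirical Bayes with a mean-variance trend) on the 13598 genes averaging 0.5 FPKM or more over the 8 libraries, and p-values were adjusted by Benjamini-Hochberg over all of them, with a threshold of 0.05. A fold on this scale understates the change of low genes. Ratios within a library were tested by exact permutation. On simulated data with 13598 genes, for IFN-γ against untreated, the share of changes recovered was 48% at 1.25-fold, 76% at 1.5-fold, 90% at 2-fold and 100% at 4-fold, and 11 of 168 calls were false. The simulation changed 50 genes per fold and gave each gene independent noise. In the data 1809 genes were called higher and 1230 lower, so these shares need not hold for them. The members and gene lists were chosen with earlier results of these data known. Beside the members, the text names from each other list up to 3 called genes with the largest change and, where fewer than 2 were called, up to 2 with the highest level; IRF1, NFE2L1, TAP1, TAP2, PSMB8-AS1, ACTB and GAPDH; and 3 genes most like each induced member. Other scalings, pseudocounts, filters, variance settings, a replicate block and leaving out each library were tried. Positions are from GENCODE release 29 and promoter windows from RefSeq. Some genes that this rule names are not reported here.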

Additional observations from a re-analysis of the deposited data

Results flagged for a closer look

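5 of 30 groups of 4 libraries held a library far from the others by Dixon's criterion, which chance alone meets in about 1 in 20 groups. IFN-γ replicate 4 was such a library for PSMB8, at 44.8 FPKM against 37.5 to 38.5 in the other treated libraries, for PSMB10, at 85.7 against 73.1 to 75.0, and for PSME2, at 435 against 337 to 350. Untreated replicate 3 stood apart for PSMB5, at 124 FPKM against 112 to 113. In the ratio PSMB9/PSMB6, IFN-γ replicate 3 was at 0.611 against 0.671 to 0.680. What sets these libraries apart was not tested.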

How the results depend on the processing

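Of 190 recomputed log2 changes of the members (19 settings each), 181 kept direction and call, 4 became calls, 5 changed sign and 0 lost a call. Rescaling to TPM, which moved the median of all genes by 0.79, called all 10 members and 42 of 43 other proteasome genes higher; SNORD3A held 5.97 to 57.9% of the FPKM sum in untreated libraries and 0 with IFN-γ. The other proteasome genes gave 21 higher and 0 lower as reported, 12 higher and 3 lower with quantile normalization, and 13 higher with TPM without short RNA genes. Of all genes tested, 1470 of 13598 were higher and 2564 lower with quantile normalization. With TPM without short RNA genes 1125 of 13562 were higher and 1711 lower. Signs turned with quantile normalization for PSMB5 (-0.03656), PSMB7 (-0.06897) and PSME3 (-0.05992), and with TPM without short RNA genes for PSMB7 (-0.00935) and PSME3 (-0.04622). The fitted value of PSMB9 ran from 5.40 to 12.01 with the pseudocount. Leaving out each library gave log2 ratio shifts of 4.67 to 4.90 for PSMB8/PSMB5, 8.52 to 8.58 for PSMB9/PSMB6, 3.19 to 3.38 for PSMB10/PSMB7, 2.87 to 2.98 for PSME1/PSME3 and 2.93 to 3.04 for PSME2/PSME3, each with exact permutation p = 0.0571, the smallest that 4 against 3 libraries allow. Because PSMB9 is listed at 0 untreated, its shift is set by the pseudocount (5.25 with 1, 11.86 with 0.01), and its narrow range shows no stability. With the replicate block 6 members were higher and 0 lower, and 16 other proteasome genes were higher; same-numbered libraries correlated at -0.03 to 0.08, not every library correlated best with its own number, and the numbers were not taken as pairs. Depth, estimated at 14.1 to 20.4 M fragments if each library was scaled to its own size, limits the low values of PSMB8 and PSMB9 in untreated cells.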
